A study of Mus musculus with 14 samples.

Results

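The Vmn1r genes encode the vomeronasal type 1 receptors (V1Rs), and all 214 gene symbols made of Vmn1r and a number were taken, of 51211 symbols in the deposited tables. Symbols were taken by name and not by value, though the family was chosen with earlier results of these data known. The RNA came from the olfactory epithelium of 14 pups, all killed at P5 and divided over 2 experiments. In the Kir2.1 experiment, 3 control mice carried OMP-IRES-tTA in the heterozygous state, and 3 Kir2.1 mice carried the same driver together with tetO-Kir2.1-IRES-tauLacZ, so the tTA driver was present in every mouse. The driver sits at the Omp locus, which is used by mature sensory neurons of the main epithelium and also of the vomeronasal organ, and tTA switches on the potassium channel Kir2.1. The records label the Kir2.1 mice Kir2.1-Off, while Kcnj2, the gene for Kir2.1, ran from 986 to 1274 normalized counts in the control mice and from 17926 to 24193 in their Kir2.1 counterparts. In the PEA experiment, 4 wild type pups were exposed to 2-phenylethylamine (PEA) from P0 to P5 and 4 wild type pups were not. The records give C57BL/6 as the background of all mice, whereas the methods of the study name CD-1 pups for the odor exposure. The methods call the Kir2.1 controls littermates but do not say which mice shared a litter, so p-values measure the spread between these mice.

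V1Rs are G protein-coupled receptors of the apical sensory neurons of the vomeronasal organ, a paired tube in the floor of the nasal cavity that detects pheromones and other social cues. A V1R neuron signals through the G protein subunit Gnai2 and the cation channel Trpc2, and each neuron is thought to use a single receptor gene or very few. The deeper, basal layer of the organ uses the other large receptor family, the V2Rs encoded by Vmn2r genes, together with Gnao1, the transcription factor Tfap2e and nonclassical H2-M class I genes. Main olfactory neurons use odorant receptors instead. The organ lies next to the main epithelium, and the labels name the tissue only as olfactory epithelium.

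In the GENCODE vM21 annotation of GRCm38, 198 of the 214 genes had a position. The RefSeq table placed 109 on chromosome 7, 52 on chromosome 6, 35 on chromosome 13, 14 on chromosome 17 and the remaining few on chromosomes 1, 4 and 18. The older names in that table sorted 121 of them into families with a letter from V1ra to V1rk. V1rc with 31 genes, V1rh with 20 and V1rd with 18 were the largest of these. The 198 coding sequences had a median of 924 bases. The coding sequence most like it among the other members was identical at a median of 93.0% of positions, and 77 genes had a neighbor of at least 95% identity. Such copies share reads, so the values of single genes within these pairs are uncertain.

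The starts of the coding sequences of 5 members that carried different patterns are shown first, with the start codon in capitals. Vmn1r4, Vmn1r180 and Vmn1r203 were above 0 in all 14 mice, though Vmn1r203 fell to 1.6 normalized counts in a PEA mouse. Vmn1r28 and Vmn1r37 were at or near 0 in most mice and high in a few. The windows lie at chr6:56956513-56956572, chr7:23952414-23952473, chr13:22524051-22524110, chr6:58265174-58265233 and chr6:66731392-66731451 in this order (GRCm38, plus strand).
Vmn1r4: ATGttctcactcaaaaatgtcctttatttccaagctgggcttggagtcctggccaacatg
Vmn1r180: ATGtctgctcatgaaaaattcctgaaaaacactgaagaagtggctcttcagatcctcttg
Vmn1r203: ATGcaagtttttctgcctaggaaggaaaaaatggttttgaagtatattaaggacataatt
Vmn1r28: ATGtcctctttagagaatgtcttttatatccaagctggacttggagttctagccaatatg
Vmn1r37: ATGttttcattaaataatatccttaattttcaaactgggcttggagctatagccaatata
Vmn1r4, Vmn1r28 and Vmn1r37 belong to the V1rc family, and their whole coding sequences were 81.6% to 83.1% identical. Vmn1r180 (V1rd) and Vmn1r203 (V1rh) were 50.9% to 54.4% identical to these and to each other. Of these 3 V1rc genes, Vmn1r4 was found in every mouse and the other two were not.

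The level of V1R RNA differed between mice far more than between groups. The values are Salmon estimates that the authors normalized with DESeq2, called normalized counts. Summed over the 214 genes, they came to 4272 in control mouse 1 and to 377 and 369 in control mice 2 and 3. The sums in the Kir2.1 mice were 342, 396 and 397. Control mouse 1 stood apart, and the other control mice lay within the range of the Kir2.1 mice. The sums of the PEA experiment were 3418, 1770, 1106 and 306 in the control mice and 2483, 276, 290 and 252 in the exposed mice. Control mice 1, 2 and 3 and exposed mouse 1 were high, and control mouse 4 and exposed mice 2, 3 and 4 were low, so the groups overlapped. The number of Vmn1r genes above 0 was 159, 85 and 66 in the control mice and 78, 75 and 67 in the Kir2.1 mice. It was 165, 155, 144 and 67 in the PEA control mice and 147, 108, 76 and 83 in the exposed mice. In these bulk samples, fewer V1R neurons and less V1R RNA per neuron cannot be told apart.

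**Figure D1:**
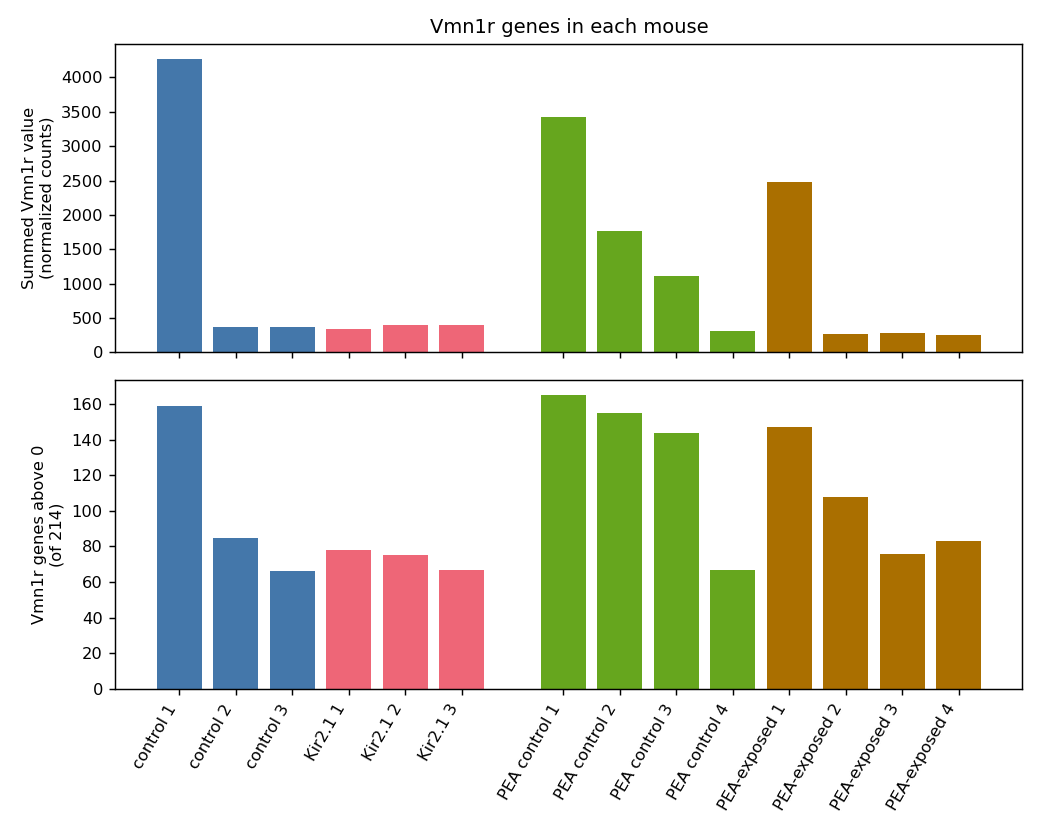
Bars give, for each of the 14 mice, the summed normalized count of the 214 Vmn1r genes (top) and the number of them above 0 (bottom), with colors for the 4 groups. Control 1 of the Kir2.1 experiment (4272), PEA control 1, 2 and 3 (3418, 1770 and 1106) and PEA-exposed 1 (2483) stand above the other 9 mice.

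Estimated depth did not separate these mice. The total deposited value per mouse ran from 33049111 to 34198478 in the Kir2.1 experiment and from 11476120 to 12467331 with PEA. Normalization evens such totals out, so they do not show depth. The commonest low value was taken as that of a single read, which gives an estimated 32500000 to 35400000 reads per library in the Kir2.1 experiment and 9760000 to 15100000 in the PEA experiment. Only 4.21% to 14.2% of the values above 0 in a mouse were whole multiples of that value, so the estimate is rough. On that estimate a value of 0 allows up to 3 reads, or 2.88 to 3.13 and 2.42 to 3.53 normalized counts, counting error only. Control mouse 1 was at 32600000 reads and exposed mouse 1, at 9760000, was the shallowest of all. On this estimate these high sums did not come with higher depth.

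Some markers of the vomeronasal organ moved with the V1R sum and others did not. Tfap2e, the basal-layer factor, was at 98.4, 2.0 and 0 in the control mice and at 1.0, 1.1 and 1.0 in the Kir2.1 mice. It was at 19.5, 9.4, 4.8 and 0.6 in the PEA control mice and at 9.3, 0, 0 and 0.8 in the exposed mice. The 5 mice with high V1R sums were thus the 5 with Tfap2e above 3. The other 2 basal-layer markers did not follow the V1R sum. Gnao1 was at 10584, 11372 and 12106 in the control mice and Robo2 at 4017, 4982 and 4539, so control mouse 1 was the lowest of the 3 for each. Gnao1 was at 407 in PEA control mouse 1 and at 827 in PEA control mouse 4, and Robo2 was at 2702 and 3133. The sum over 138 genes for V2Rs, formyl peptide receptors and H2-M partners ran from 1061 to 7044 in the control mice and from 1079 to 1139 in the Kir2.1 mice. For the PEA mice it ran from 320 to 6596 (control) and from 304 to 4776 (exposed). Fpr-rs3, a formyl peptide receptor of the organ, was at 14.2 in control mouse 1 and at 0 in the other 5 mice of that experiment. It was at 11.6, 5.4 and 2.9 in PEA control mice 1, 2 and 3, at 7.9 in exposed mouse 1 and at 0 in the other 4. Like Gnao1 and Robo2, the apical-layer markers are also used in the main epithelium. The 3 apical-layer genes Gnai2, Meis2 and Nrp2 together ran from 12985 to 19798 (control) and from 14109 to 19022 (Kir2.1). Trpc2 was at 528, 376 and 283 in the control mice and at 225, 145 and 152 in the Kir2.1 mice. The 2 groups did not overlap for Trpc2 and its log2 fold change was -1.16 (SE 0.26), but the adjusted p was 0.173 by limma with Benjamini-Hochberg adjustment. Trpc2 shares exons with the readthrough gene Xntrpc, so reads could be split between them. Trpc2 ran from 23.2 to 61.6 in PEA control mice and from 26.5 to 55.2 in exposed mice. Xntrpc was at 818, 528 and 531 in the control mice and at 335, 416 and 401 in the Kir2.1 mice. Its log2 fold change was -0.68 (SE 0.19), with an adjusted p of 0.248 by the same limma test. For PEA it was at 130, 85.6, 61.6 and 47.6 in control mice and at 84.7, 33.1, 40.5 and 35.7 in exposed mice. The PEA mice with high V1R sums were thus each above the others for Xntrpc, but not for Trpc2. The 5 genes listed for vomeronasal and nasal glands did not follow the V1R sum. They summed to 8562 in control mouse 1, the lowest of that experiment, and to between 25503 and 767757 in the other 5 mice. With PEA they summed to 462126 in exposed mouse 1 and to 862473 in exposed mouse 4. Some markers of other cells moved in both comparisons as well. The 9 genes of mature main olfactory neurons summed to between 131278 and 145257 normalized counts with control genotype and to 96329 up to 109158 with Kir2.1, and all 9 were lower at an unadjusted p under 0.05 by limma. At that threshold 2 of 3 respiratory and 2 of 4 cartilage genes tested were higher. Among all genes 6.2% were lower and 4.93% higher. With PEA exposure, 2 of 4 sustentacular, 1 of 3 respiratory and 1 of 9 main olfactory neuron genes were higher at that threshold, and 1 of those 9 was lower. Among all genes 6.04% were lower and 8.93% higher there. The part of vomeronasal tissue and of other cells in the comparisons below was not tested.

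The V1R profiles of the high mice were alike in the 2 experiments, but not for every gene. Vmn1r80 was at 1.4 normalized counts per kilobase of exon in control mouse 1 and at 10.9 in PEA control mouse 1. Vmn1r20 was at 24.4 and 2.6 in these mice. Over the 214 genes, log2(normalized count + 1) of control mouse 1 correlated at Pearson's r of 0.86, 0.84, 0.79 and 0.85 with PEA control mice 1, 2 and 3 and exposed mouse 1. These libraries came from different kits, read lengths and experiments. With the other 5 mice of its own experiment the same measure was between 0.46 and 0.52. In each of those 5 mice the median Vmn1r value was 0, and 30 of the 214 genes were at 0 in all 14 mice. Values at or near the floor thus bear on each r. The genes share libraries and many are near copies, so these values describe the profiles and carry no p. Among the other 5 mice of the Kir2.1 experiment r was between 0.70 and 0.84. Each of the 5 mice with Tfap2e above 3 was higher than all 9 others for 71 genes, and 7 genes were above 0 in each of these 5 mice and at 0 in all 9 others. These 5 are also the mice with the high V1R sums, so such counts follow in part from the choice and test nothing. The same counts over all genes were not made, and the experiments were normalized separately.

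**Figure D2:**
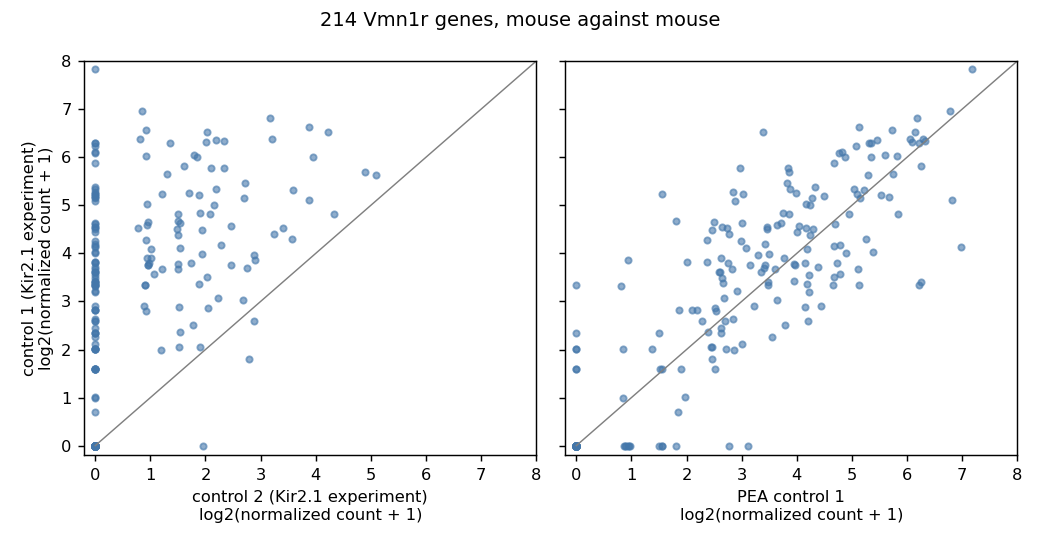
Each point is a Vmn1r gene (214), with log2(normalized count + 1) of control 1 of the Kir2.1 experiment on the vertical axis and of control 2 (left) or PEA control 1 (right) on the horizontal axis; the line marks equal values. Control 1 lies above control 2 for most genes (r = 0.50) and follows PEA control 1 (r = 0.86).

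Levels of genes were compared per kilobase of exon, as means over the mice of an experiment. In the Kir2.1 experiment the 10 highest were Vmn1r4, Vmn1r37, Vmn1r20, Vmn1r203, Vmn1r197, Vmn1r27, Vmn1r228, Vmn1r202, Vmn1r28 and Vmn1r89, from 8.27 down to 3.22 normalized counts per kilobase. In the PEA experiment they were Vmn1r180, Vmn1r4, Vmn1r178, Vmn1r27, Vmn1r228, Vmn1r37, Vmn1r176, Vmn1r35, Vmn1r171 and Vmn1r175, from 8.21 to 4.55. The 2 rankings shared 4 genes. Some of these ranks rested on a single mouse and others on all of them.

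Vmn1r28 (V1rc; GRCm38 chromosome 6, 58262037 to 58275639) was the gene with the highest value in each of the 5 high mice. It was at 227, 0 and 0.7 in the control mice and at 1.2, 0.6 and 0 in the Kir2.1 mice. With PEA it was at 144, 78.4, 52.2 and 0 in the control mice and at 127, 2.0, 0 and 1.0 in the exposed mice. It took 4.2% to 5.3% of the V1R sum in the 5 high mice and at most 0.7% elsewhere. Vmn1r27 (V1rc; chromosome 6, 58213091 to 58218821) was at 77.1 in control mouse 1 and at 0 in the other 5 mice of that experiment. It was at 73.3, 27.4, 12.9 and 0 in the PEA control mice and at 37.3, 1.3, 0 and 0 in the exposed mice. Vmn1r37 and Vmn1r35, from another V1rc group on the same chromosome, were at 67.0 and 36.5 in control mouse 1 and at 0 in the other 5. Vmn1r37 was at 26.1, 15.4 and 4.4 in PEA control mice 1, 2 and 3, at 35.0 in exposed mouse 1 and at 0 in the other 4. Vmn1r89, known also as V1rj2 and as a receptor for sulfated steroids of female urine, was at 80.8, 3.6 and 0 in the control mice and at 1.2, 0.6 and 0 in the Kir2.1 mice. Among the PEA mice it was at 42.6, 30.9, 18.2 and 0 in the control mice and at 42.1, 1.0, 0 and 0 in the exposed mice. For all 5 genes the mice fell into the same high and low sets.

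Vmn1r4 (V1rc; chromosome 6, 56924015 to 56958100) did not follow that split. It was at 48.4, 33.3 and 24.4 in the control mice and at 25.3, 27.9 and 26.1 in the Kir2.1 mice. Across the PEA mice it was at 38.4, 23.4, 27.4 and 23.3 in the control mice and at 25.2, 22.4, 27.4 and 19.9 in the exposed mice. The highest mouse was 1.99 times the lowest in the Kir2.1 experiment and 1.93 times in the PEA experiment. Vmn1r4 made up 1.0% to 2.5% of the V1R sum in the 5 high mice and 6.6% to 9.4% in the 9 others. Vmn1r180 (V1rd; chromosome 7, 23950632 to 23955691) was at 18.7, 10.8 and 20.8 in the control mice and at 12.8, 13.9 and 19.5 in the Kir2.1 mice. It was at 37.0, 65.8, 52.0 and 65.8 in the PEA control mice and at 39.4, 12.5, 33.9 and 25.9 in the exposed mice. PEA control mouse 4, with only 6 members at 10 or more, shared the highest Vmn1r180 value, which was 21.5% of its V1R sum. Vmn1r203 (V1rh; chromosome 13, 22518114 to 22531992) was at 51.0, 28.6 and 50.8 in the control mice, and the Kir2.1 mice lay from 39.3 to 43.0. It was between 1.6 and 13.4 in all 8 PEA mice. It took 7.6% to 13.8% of the V1R sum in the 5 lower mice of the Kir2.1 experiment and 0.3% to 1.6% in the PEA mice. These library kits differed between the experiments, so kit and experiment cannot be told apart.

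Few other genes were detected in every mouse. Of the 214 genes, 12 were above 0 in all 14 mice, and after Vmn1r4 and Vmn1r180 the highest lowest values were those of Vmn1r51, Vmn1r175 and Vmn1r46. Vmn1r51 (V1ra) was at 65.4, 2.4 and 9.6 in the control mice and at 2.7, 2.5 and 3.6 in the Kir2.1 mice. It was at 47.6, 27.7, 7.6 and 4.0 in the PEA control mice and at 18.8, 5.6, 11.2 and 2.8 in the exposed mice. Vmn1r46 (V1rb) was at 22.1, 9.6 and 8.0 in the control mice and at 7.8, 9.9 and 23.2 in the Kir2.1 mice, with its highest value in Kir2.1 mouse 3. Vmn1r46 was between 1.7 and 8.5 in the PEA mice. Vmn1r175 was above 10 in the 5 high mice and between 1.8 and 9.4 in the others. A value of at least 10 in some mouse outside the 5 high ones was reached by 25 genes, of which 8 belonged to V1rd and 12 lay on chromosome 7.

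**Figure D3:**
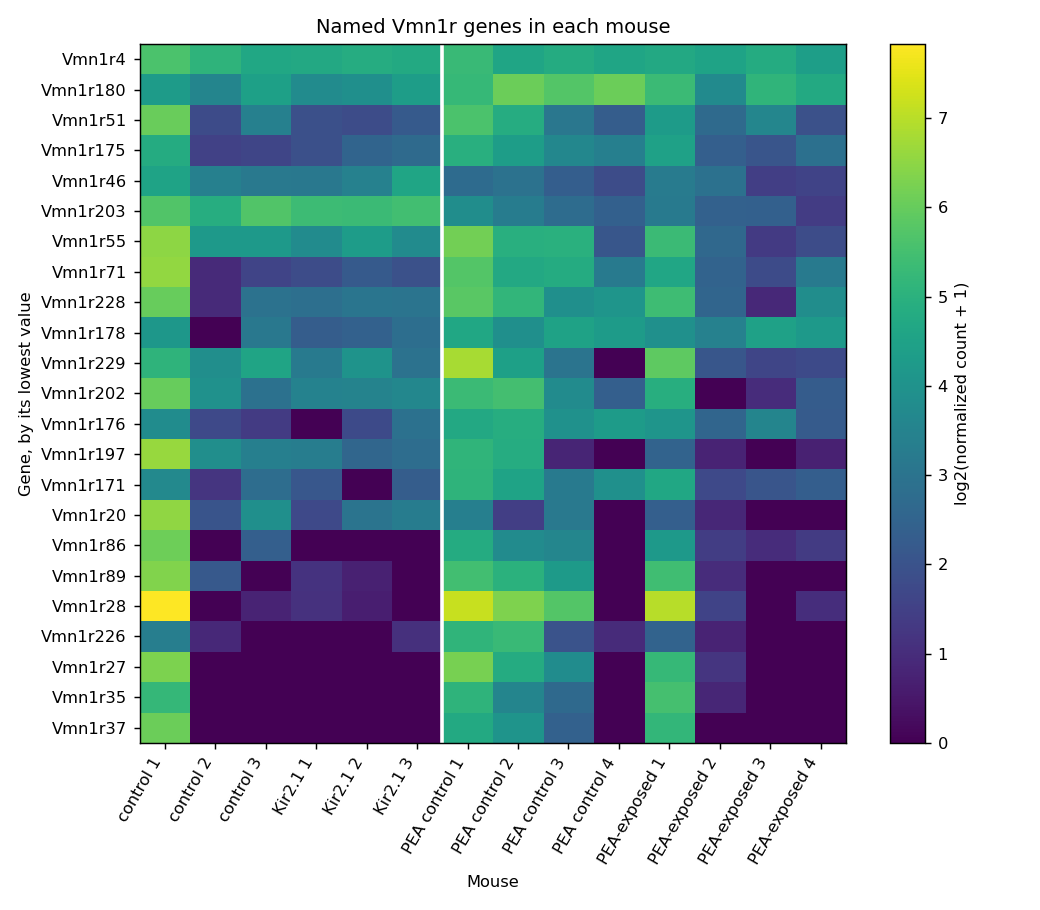
Each row is a named Vmn1r gene (23), ordered by its lowest value, each column is a mouse, and color gives log2(normalized count + 1) from 0 (dark) upward; the white line separates the 2 experiments. Vmn1r4 and Vmn1r180 at the top are present in all 14 mice, while Vmn1r27, Vmn1r35 and Vmn1r37 at the bottom are at or near 0 outside control 1, PEA control 1, 2 and 3 and PEA-exposed 1.

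The families differed in how much of the V1R sum they took. V1rc, the largest lettered family, was at 21.2% in control mouse 1 and at 11.3% to 16.7% in the other 5 mice of that experiment. Among the PEA mice V1rc took 17.5% to 20.1% in the 4 high mice and 17.0% to 18.3% in the 3 low exposed mice, so these ranges overlapped, while in control mouse 4 it took 31.1 of the 306 normalized counts. V1rd took 7.6% of the sum in control mouse 1 and 14.2% to 20.1% in the other 5. In the PEA experiment V1rd took 8.7% to 15.7% in the 4 high mice and 18.6% to 38.2% in the 4 low ones. Vmn1r178, a V1rd gene, was at 24.5, 13.8, 21.9 and 18.5 in the PEA control mice and at 14.4, 9.8, 21.2 and 17.5 in the exposed mice. V1rh took 15.1% to 22.2% in the 6 mice of the Kir2.1 experiment and 3.2% to 15.1% in the PEA mice. V1ra and V1rb lie in a cluster on chromosome 6 whose deletion is known to alter mating and maternal aggression, and together these families had 12 genes. V1ra was at 279 in control mouse 1 and between 6.1 and 19.4 in the other 5. V1rb moved less, at 29.2 in control mouse 1 and between 7.8 and 23.2 in the other 5.

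**Figure D4:**
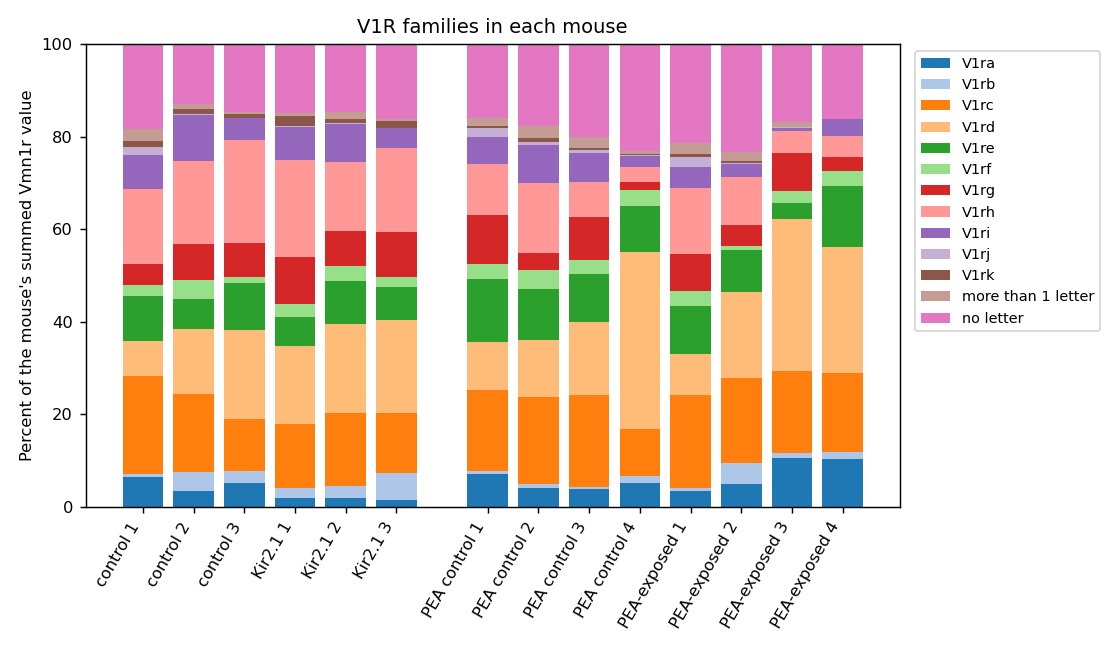
Stacked bars give, for each mouse, the percent of its summed Vmn1r value taken by each V1R family letter, by genes with more than 1 letter and by genes with none. The V1rd part is smallest in control 1 of the Kir2.1 experiment (7.6%) and largest in PEA control 4 (38.2%).

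Near-identical copies make up most of the members with no signal. All 14 mice were at 0 for 30 genes, of which 26 were on chromosome 7. Where a coding sequence was at hand, their median identity to the nearest member was 99.6%, against 91.6% for the 184 genes above 0 in some mouse. A median of 4.5% of the 40-base windows of their transcripts were found in no other gene, against 88.9%. The gene models also differed. For 46 genes GENCODE holds the coding sequence alone, and 22 of these were at 0 in all mice and none reached 10. Of the 152 genes with exon bases beyond it, 3 were at 0 in all mice and 120 reached 10 in some mouse. The reads of the Kir2.1 experiment were 40 bases long. The part of shared reads and of gene models in these zeros was not tested.

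Sequences of 3 pairs show how closely members can match; the pairs were chosen for their sequence after values were seen. Capitals mark bases that differ within a pair, in coding sequence, 5′ to 3′. The windows of Vmn1r20 and Vmn1r27 are at chr6:57432433-57432492 (plus strand) and chr6:58215216-58215275 (minus strand), and hold 8 of the 23 differences in 912 bases.
Vmn1r20: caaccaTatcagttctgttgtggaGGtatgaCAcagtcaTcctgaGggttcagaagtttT
Vmn1r27: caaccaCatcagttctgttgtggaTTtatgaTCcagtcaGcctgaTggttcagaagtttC
The genes were 97.5% identical and still differed in pattern. Vmn1r20 was at 90.6, 3.1 and 13.9 in the control mice and at 2.3, 7.0 and 8.7 in the Kir2.1 mice, where Vmn1r27 was at 0 in all but control mouse 1. In the PEA experiment Vmn1r20 was at most 9.5, whereas Vmn1r27 reached 73.3. For Vmn1r107 and Vmn1r130 the windows are at chr7:20669223-20669282 and chr7:21512085-21512144 (plus strand), around the 1 difference in 924 bases.
Vmn1r107: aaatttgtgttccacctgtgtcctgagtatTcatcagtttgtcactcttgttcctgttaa
Vmn1r130: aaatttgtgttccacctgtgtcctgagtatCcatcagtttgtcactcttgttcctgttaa
Vmn1r107 was at 3.8 in Kir2.1 mouse 1 and Vmn1r130 at 1.8 in PEA control mouse 2, and both were at 0 in every other mouse. Vmn1r132 and Vmn1r139 were identical over all 894 coding bases, and the first 60 are at chr7:21614092-21614151 and chr7:22096867-22096926 (plus strand).
Vmn1r132: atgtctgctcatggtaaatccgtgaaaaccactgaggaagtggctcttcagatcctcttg
Vmn1r139: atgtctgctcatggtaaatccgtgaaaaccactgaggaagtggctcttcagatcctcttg
Vmn1r132, modelled with 894 exon bases, was at 0 in all mice. Vmn1r139, modelled with 1326, was at 21.3, 2.8 and 0 in the control mice and at 0, 1.0 and 0 in the Kir2.1 mice. Such values cannot show which copy was transcribed.

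Kir2.1 mice were compared with control mice to ask what the silencing channel changed at P5. No Vmn1r gene passed the test. Of the 214 genes, 33 had a mean of at least 10 normalized counts and were tested with limma, and 0 of 33 had an adjusted p under 0.05, where 0.353% of all 19807 genes tested did. At an unadjusted p under 0.05, 1 of 33 was lower and 0 were higher, beside 6.2% and 4.93% of all genes. The log2 fold change was below 0 for 30 of the 33, beside 48.8% of all genes, with a median of -1.12 beside 0.01. The filter bears on that count, since 24 of the 33 had a mean under 10 over the other 5 mice and were admitted through control mouse 1, so it is a description and no support for a direction. Control mouse 1 was the highest of the 6 mice for 149 of the 214 genes, over 5 times the next mouse for 111, and the only mouse above 0 for 39. Without it, the median of the 33 was 0.14, with 11 below 0 and 20 above, and 0 had an unadjusted p under 0.05 by limma. As most of the 33 were admitted through that mouse, a median nearer to 0 follows from the choice and tests nothing. With Tfap2e as a covariate, an alternative chosen after the values were seen, the median was -0.06, with 18 below 0 and 15 above. Tfap2e was at 98.4 in control mouse 1 and at most 2.0 in the other 5 mice, so this fit nearly repeats that removal. With Trpc2 as a covariate the median was 2.07, with 4 below 0 and 29 above. Trpc2 itself did not overlap between the groups, so with 6 mice this fit cannot separate Trpc2 from genotype. Over all 214 genes, 147 were lower in the group mean, 14 higher and 53 equal, and, whatever their level, the median difference of the group means of log2(normalized count + 1) was -0.77 with all mice and 0.00 without control mouse 1.

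Vmn1r229 (V1re; chromosome 17, 20811555 to 20823627) had the smallest unadjusted p. It was at 33.4, 13.8 and 22.7 in the control mice and at 8.4, 15.2 and 6.8 in the Kir2.1 mice. The groups overlapped, through Kir2.1 mouse 2 and control mouse 2. The log2 fold change was -1.12 (SE 0.47), with an adjusted p of 0.441 by limma with Benjamini-Hochberg adjustment. Vmn1r197 (V1rh) was at 97.5, 13.7 and 9.5 in the control mice and at 9.0, 5.0 and 6.0 in the Kir2.1 mice, so its groups did not overlap. Its log2 fold change was -1.73 (SE 0.83), with an adjusted p of 0.515 by the same limma test, and -0.74 without control mouse 1. Vmn1r86 was at 67.6, 0 and 4.2 in the control mice and is listed at 0 in all 3 Kir2.1 mice. Vmn1r55 (V1rd) was at 90.5, 17.7 and 17.8 against 12.8, 19.1 and 12.6. The groups overlapped for Vmn1r55, through Kir2.1 mouse 2, and the adjusted p was 0.642 by the same limma test.

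Over all 214 genes, 5 did not overlap between the groups, each lower in the Kir2.1 mice, and 0 did so in the other direction. Among all genes above 0 in at least 1 mouse, 6.0% were lower and 5.63% were higher without overlap. The 5 were Vmn1r42, Vmn1r45, Vmn1r189, Vmn1r197 and Vmn1r236, named because they are few. Vmn1r45 was at 27.8, 2.7 and 6.3 in the control mice and at 0 in the Kir2.1 mice. Vmn1r42 was at 2.5, 5.9 and 1.7 in the control mice and at 0.7, 1.5 and 0.9 in the Kir2.1 mice. Vmn1r197 alone among them had a mean of at least 10.

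PEA-exposed pups were compared with unexposed pups to ask what early experience of an odor changed. No Vmn1r gene passed this test either. Of the 214 genes, 45 were tested and 0 of them reached 0.05 after adjustment (limma), where 0.179% of all 17322 genes did. At an unadjusted p under 0.05, 5 of 45 were lower and 0 were higher, beside 6.04% and 8.93% of all genes. The log2 fold change was below 0 for 44 of the 45, beside 53.5% of all genes, with a median of -1.54 beside -0.02. Here 42 of the 45 had a mean under 10 over the 4 mice with low V1R sums and were admitted through the 4 high mice, so this count too is a description and no support for a direction. Over all 214 genes, 163 were lower in the group mean, 19 higher and 32 equal. Of the 4 PEA mice with Tfap2e above 3, 3 were control mice and 1 was exposed. With Tfap2e as a covariate, the median of the 45 was 0.33, with 17 below 0 and 28 above. With Trpc2 as a covariate it was -1.76, with 44 below 0 and 1 above, and 23 lower at an unadjusted p under 0.05. Without the 4 mice with Tfap2e above 3, which leaves 1 control mouse assumed to vary like the 3 exposed mice, the median was 0.28, with 20 below 0 and 24 above. The 4 mice left out are also those with the high V1R sums, so a median nearer to 0 follows from the choice and tests nothing. The Tfap2e covariate and this choice of mice were made after the values were seen. Without exposed mouse 1 alone, the median was -2.38, and without control mouse 4 alone it was -2.18. At an unadjusted p under 0.05 by limma, 31 and 18 of the 45 were lower, beside 1169 and 1325 of all 17322 genes. Exposed mouse 1 was the only exposed mouse with a high V1R sum, and control mouse 4 the only control mouse with a low one. Leaving either out widens the difference by the choice itself and tests nothing. Over all 214 genes, whatever their level, no gene was without overlap in either direction, beside 2.42% lower and 3.16% higher among all genes above 0 in at least 1 mouse.

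**Figure D5:**
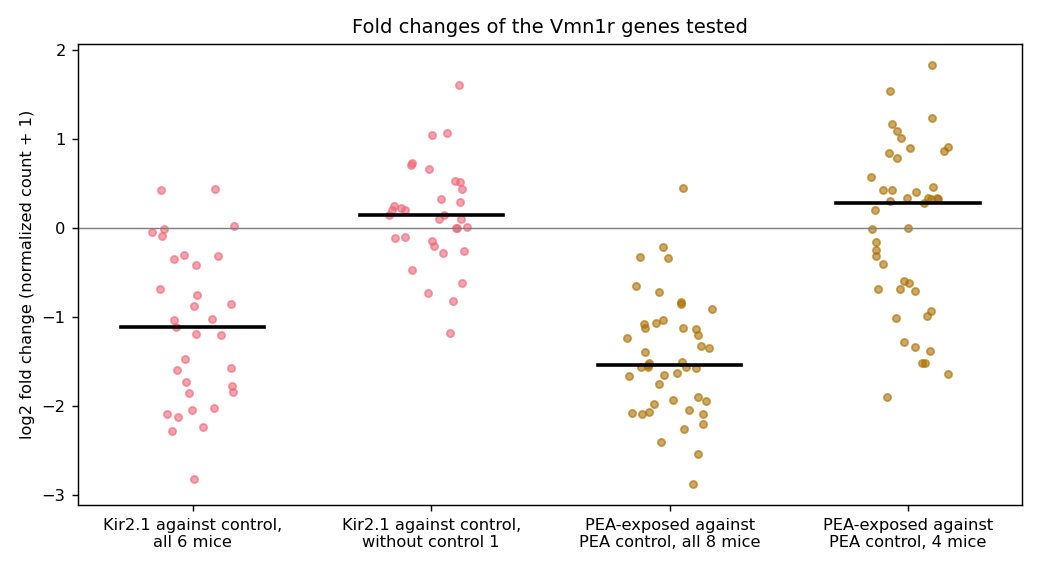
Each point is the limma log2 fold change, on normalized count + 1, of a tested Vmn1r gene (33 in the Kir2.1 experiment, 45 in the PEA experiment), and the black bar is the median. The medians are -1.12 and -1.54 with all mice, 0.14 without control 1 and 0.28 without the 4 PEA mice with Tfap2e above 3. The mice left out are those with high V1R sums, so medians nearer to 0 follow from the choice.

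The 5 genes with the smallest unadjusted p were Vmn1r176, Vmn1r180, Vmn1r226, Vmn1r71 and Vmn1r171. Vmn1r176 (chromosome 7, 23833840 to 23837372) was at 25.4, 28.2, 14.6 and 18.7 in the control mice and at 16.1, 4.8, 10.8 and 3.7 in the exposed mice. The groups overlapped only through exposed mouse 1. The log2 fold change was -1.35 (SE 0.46), with an adjusted p of 0.221 by limma with Benjamini-Hochberg adjustment. Vmn1r180, whose values are given above, averaged 55.1 ± 13.7 in the control mice and 27.9 ± 11.6 in the exposed mice (SD, n = 4 each), and the groups overlapped. Its log2 fold change was -1.03 (SE 0.35), with an adjusted p of 0.222 by the same limma test. It differed from most members, since PEA control mouse 4 was at 65.8. All 5 of these genes stayed below 0 under all 19 alternatives. The alternatives reuse the same mice and the genes were chosen by their p, so this is no support for a direction. The highest adjusted p by limma was 0.566 for Vmn1r176 and 0.510 for Vmn1r180. Vmn1r71 (V1re) was at 52.2, 25.4, 27.4 and 8.2 against 23.9, 4.7, 2.5 and 8.4. Vmn1r226 (V1re) was at 34.2, 39.0, 3.0 and 1.0 against 4.7, 0.7, 0 and 0. Vmn1r171 (V1rd) was at 33.3, 22.5, 8.4 and 14.4 against 24.6, 2.3, 3.2 and 4.1. For these 3 genes the adjusted p was 0.310, 0.310 and 0.329 by the same limma test.

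Genes that V1R neurons use for signalling were tested beside the receptors. Of Gnai2, Gnb1, Gng8, Plcb2, Trpc2, Ano1 and Ano2, 0 of 7 passed an adjusted p of 0.05 by limma in either comparison. At an unadjusted p under 0.05, 2 of 7 were lower with Kir2.1, beside 6.2% of all genes. With PEA exposure 1 of 7 was higher, beside 8.93%. All 7 are also used in the main epithelium or other tissue of the nose. Of the 138 V2R, formyl peptide receptor and H2-M genes, 60 and 76 were tested and 0 passed in each comparison. Their median log2 fold change was -1.19 in the Kir2.1 experiment and -1.46 in the PEA experiment, after the same filter. At an unadjusted p under 0.05, 4 of 60 and 1 of 76 were lower, beside 6.2% and 6.04% of all genes.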

How the data were processed

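Olfactory epithelia of single P5 pups were profiled. Per the methods, poly-A selection without strand information and single-end reads of 40 bases were used for Kir2.1, and depletion of ribosomal RNA with stranded reads of 150 bases for PEA. The authors estimated transcript counts with Salmon 1.3.0 on GRCm38, imported them per gene and normalized each experiment with DESeq2 1.30.0 (versions also in the submitters' processing notes). The deposited values are thus a normalized signal, so count models could not be used. Salmon was run with a setting for reverse-stranded reads on all libraries, although the Kir2.1 kit is unstranded, and what this did to the values was not tested.

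The members and lists were chosen with earlier results of these data known. Genes with a mean of at least 10 were tested on log2(value + 1) with limma 3.58.1 in R 4.3.3 (trend, two-sided, Benjamini-Hochberg over all genes tested, threshold 0.05), each experiment alone. The pseudocount understates the change of low genes. On simulated data with 200 changed genes, log2 changes of 1 and 2 were recovered at 49.5% and 83% among 19807 genes (Kir2.1 design) and 54.5% and 90% among 17322 (PEA design). The changed genes were drawn at random from all genes tested, with normal noise at each gene's own SD. These shares need not hold for the Vmn1r genes tested, whose SE ran from 0.29 to 1.97 (Kir2.1) and from 0.25 to 1.75 (PEA). Recovery among Vmn1r genes alone was not tested.

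Python 3.11.15 with pandas 2.3.3 did the rest. Named members are, per experiment, the 10 highest per kilobase of exon, the 5 with the smallest p in each comparison, and the 5 with the highest lowest value over all 14 mice. Other named genes are marker lists and the 10 genes most like the V1R sum. The further lists (glands, main olfactory neurons, sustentacular cells, respiratory epithelium, cartilage, muscle) had 1 called gene, Omp, lower in the Kir2.1 mice. Lists with genes at an unadjusted p under 0.05 are given in the results. Family letters are RefSeq synonyms, and sequences and exons are GENCODE vM21. A window counts as found in no other gene by exact match, on either strand. Alternatives were pseudocounts of 0.5 and 5, a mean of at least 50, no filter, no trend, robust moderation, quantile normalization, median centring, a replicate block, Trpc2 as a covariate, leaving out mice with Trpc2 over 3 times the lowest, each mouse left out, and a threshold of 0.10.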

Additional observations from a re-analysis of the deposited data

Results flagged for a closer look

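Values of 4 mice were checked for a mouse far from the rest, as the gap to its neighbor over the range of the group, against Dixon's 95% critical value. Of 56 such checks in the PEA experiment, 15 passed it, and all 15 concern exposed mouse 1 as the highest of the exposed mice. A chance rate of about 1 in 20 assumes normal values and genes chosen without regard to their values. The named Vmn1r genes were chosen by their values, and several were barely detected in the other exposed mice. The count of 15 therefore cannot be judged against that rate and only describes exposed mouse 1. The ratio was 0.983 for the summed Vmn1r value, 0.988 for the summed Vmn2r value and 0.917 for Tfap2e. Among V1rc genes it was 0.965 for Vmn1r27, 0.984 for Vmn1r28, 0.982 for Vmn1r35 and 1.0 for Vmn1r37. It was 0.900 for Vmn1r55, 0.960 for Vmn1r86 and 0.977 for Vmn1r89. It was 0.921 for Vmn1r171, 0.849 for Vmn1r197 and 0.866 for Vmn1r202. It was 0.849 for Vmn1r226 and 0.979 for Vmn1r229. The checks are not independent, since they share the same mice. No value of the PEA control mice passed, and the groups of 3 mice cannot be checked in this way.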

How the results depend on the processing

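No Vmn1r gene had an adjusted p under 0.05 by limma under any alternative, in either comparison. At an unadjusted p under 0.05 by limma, 1 Vmn1r gene was lower in the Kir2.1 comparison. Without a filter the count became 8 of 161, all lower, beside 1473 of all 35321 genes. The count became 0 with Tfap2e as a covariate and 0 without the mice with Trpc2 over 3 times the lowest (control mouse 1). With each mouse left out it was 0 to 4, the highest without control mouse 2, beside 927 of all 19807 genes lower. The count of 5 lower genes in the PEA comparison became 16 of 182 without a filter, beside 1438 of all 33983 genes. At a mean of at least 50 the count was 0 (1 gene tested). With the replicate block the count was 21 and with Trpc2 as a covariate 23, beside 950 and 1175 of all 17322 genes. With Tfap2e as a covariate 0 were lower and 2 were higher, beside 747 and 992. With each mouse left out the count was 2 to 31, the highest without exposed mouse 1, beside 1169 of all genes lower. Leaving out the mice with Tfap2e over 3 leaves 1 control mouse, so no count is given for it. With Trpc2 as a covariate 29 of the 33 genes tested had a log2 fold change above 0 in the Kir2.1 comparison, against 3 without it, and the median became 2.07. Among the 5 with the smallest p it turned positive for 4, to 1.40 for Vmn1r197, 0.39 for Vmn1r86, 0.46 for Vmn1r51 and 0.66 for Vmn1r55. Trpc2 did not overlap between the control and Kir2.1 mice, so this fit cannot separate Trpc2 from genotype and shows no direction. The median over all 214 genes ran from -1.21 to 0 and from -1.03 to -0.31 with each mouse left out. All genes called in the Kir2.1 comparison, 70, became 20 without a trend, 9 with the replicate block, 0 with Trpc2 and 26 with Tfap2e as covariates, 16 without the mice with Trpc2 over 3 times the lowest, 171 at a threshold of 0.10 and 16 to 44 with each mouse left out. All genes called in the PEA comparison, 31, became 52 without a filter, 20 with Tfap2e as a covariate, 128 at 0.10 and 19 to 41 with each mouse left out. The marker genes called in the Kir2.1 comparison, 1, became 2 with robust moderation, 4 at 0.10, and 0 with a pseudocount of 5, without a filter, without a trend, with the replicate block, with either covariate, without the mice with Trpc2 over 3 times the lowest and with each mouse left out (0 to 0), and those in the PEA comparison, 0, became 1 at 0.10. The cause of these shifts was not tested.

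The replicate block pairs mice by number. After removal of group means, mice with equal numbers had correlations of -0.06, -0.01 and 0.16 (Kir2.1 experiment) and of 0.13, -0.02, -0.05 and 0.10 (PEA experiment), so the mice share only a number. No member had a mean of at least 50 in the Kir2.1 experiment, and no PEA mouse had Trpc2 over 3 times the lowest, so these alternatives gave no value there. At these levels a listed 0 allows up to 3 reads, which limits what single members can show.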

Other observations

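Outside the numbered Vmn1r and Vmn2r genes, 16629 genes were ranked by how closely they followed the V1R sum, by the lower of the Pearson correlations over the 6 and the 8 mice. The 10 highest were Vmn2r-ps129, Vmn2r-ps159, Gm36028, Calr4, Gm20287, AC139131.1, Vil1, Plod2, Vmn1r-ps14 and Atp2b2, with r of at least 0.88. Of these, 3 are vomeronasal receptor pseudogenes. Calr4, a calreticulin family chaperone, was at 638 in control mouse 1 and between 63.9 and 126 in the other 5 mice of the Kir2.1 experiment. In the PEA experiment Calr4 was at 616, 175, 102 and 22.0 in the control mice and at 203, 55.4, 34.9 and 29.8 in the exposed mice. Vil1, the actin-bundling protein villin of microvilli, was at 268 in control mouse 1 and between 17.2 and 33.0 in the other 5. Atp2b2, a calcium pump of the plasma membrane, was at 271 in control mouse 1 and between 46.3 and 69.8 in the other 5. Plod2 ranked among the 10 although it varied little, from 992 to 1261 and from 420 to 603. Single high mice set these correlations in the Kir2.1 experiment, so they describe these libraries and carry no p.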
